A study of Mus musculus with 4 samples.

Results

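Imprinted genes are transcribed from the allele of only 1 parent, and 9 of them were followed here across cultured mouse embryonic fibroblasts (MEF) of 2 genotypes, with and without tumour necrosis factor (TNF). They were chosen by symbol from 10 given names, as probe sets whose annotation holds exactly 1 gene, out of 8251 genes named on the array. The paternally expressed genes were Mest, Peg3, Dlk1, Plagl1 and Igf2, and the maternally expressed genes were Grb10, Meg3, Cdkn1c and Igf2r. These parental classes, and those of the other imprinted genes below, were assigned by gene. The arrays do not separate alleles, so the expressed allele was not measured in these cells. H19 was dropped because its probe set lists a second symbol. The 9 genes are represented by 16 probe sets, and 5 of the genes have more than 1.

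The 4 samples were wild-type MEF and XIAP knockout MEF, each left unstimulated or exposed as confluent cells to TNFa at 20 ng/ml for 4 hours. Xiap encodes a caspase inhibitor, and TNF is a cytokine that activates NF-kB. All cultures were grown in the same serum-containing medium, and total RNA of each was hybridised to a single Affymetrix U74Av2 array. The labels do not say how many mice or clones stand behind each genotype, which strain and age they had, or whether the cells were immortalised. Each group has 1 array and thus no replicates, no spread within a group can be had, and precision is limited by how few arrays there are. Genotype and any further way in which the 2 cell preparations differed, such as the sex read from Xist and Eif2s3y below, cannot be told apart.

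Genomic imprinting is set in the germ line as DNA methylation at control regions and is then kept through cell division, so that clusters of neighbouring genes are read from the maternal or the paternal chromosome. Many of these genes act on growth before birth. Paternally expressed genes such as Igf2 tend to promote it, and maternally expressed genes such as Igf2r, Grb10 and Cdkn1c tend to restrain it. Several are high in embryonic mesenchyme and fall after birth, and a number of them are co-regulated with Plagl1, a zinc finger transcription factor.

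The stretches of DNA just before the transcription starts of 4 of the genes are shown with their CG pairs, the sites at which DNA is methylated. The regions whose methylation differs between the parental alleles can lie elsewhere in or near a gene. Mest and Grb10 had high ratios of knockout to wild-type signal, and Dlk1 and Meg3 are neighbours read from opposite parental chromosomes that were both lower. Each line gives the 250 bases before a RefSeq start in GRCm38.p6, 5′ to 3′ on the gene's strand, with CG pairs in capitals. Where a gene has several starts, the one with most CG pairs is given, and for the tied starts of Mest the first.
Mest: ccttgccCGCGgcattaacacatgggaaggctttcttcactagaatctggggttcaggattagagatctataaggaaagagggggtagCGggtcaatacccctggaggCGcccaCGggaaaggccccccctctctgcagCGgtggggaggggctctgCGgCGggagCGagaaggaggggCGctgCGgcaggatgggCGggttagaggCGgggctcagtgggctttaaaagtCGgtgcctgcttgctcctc
Grb10: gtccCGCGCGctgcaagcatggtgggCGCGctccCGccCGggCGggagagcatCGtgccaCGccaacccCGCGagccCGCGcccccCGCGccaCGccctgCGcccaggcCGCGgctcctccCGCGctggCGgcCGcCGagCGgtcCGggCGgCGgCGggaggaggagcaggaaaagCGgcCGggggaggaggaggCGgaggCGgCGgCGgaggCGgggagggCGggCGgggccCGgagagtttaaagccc
Dlk1: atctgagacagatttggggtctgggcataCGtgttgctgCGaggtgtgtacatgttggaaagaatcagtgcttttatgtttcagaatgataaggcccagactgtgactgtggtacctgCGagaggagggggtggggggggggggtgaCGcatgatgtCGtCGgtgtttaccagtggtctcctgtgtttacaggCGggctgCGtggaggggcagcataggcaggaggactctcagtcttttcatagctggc
Meg3: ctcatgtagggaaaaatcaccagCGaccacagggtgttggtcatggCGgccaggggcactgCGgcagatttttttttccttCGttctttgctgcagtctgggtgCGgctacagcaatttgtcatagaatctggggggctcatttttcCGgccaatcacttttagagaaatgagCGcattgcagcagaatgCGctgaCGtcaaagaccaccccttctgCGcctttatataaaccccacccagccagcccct

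These windows lie at chr6:30737800-30738049 (plus strand) for Mest, chr11:12037421-12037670 (minus strand) for Grb10, chr12:109452573-109452822 (plus strand) for Dlk1 and chr12:109540746-109540995 (plus strand) for Meg3. The Grb10 window held 40 CG pairs, and 1.31% of 32851 mouse promoter windows of this length held as many. The Mest window held 14 (29.4% of windows held as many), the Meg3 window 10 (37.8%) and the Dlk1 window 8 (43.0%). The median window held 6. Choosing the start with most CG pairs favours a low share. The other Grb10 window held 8 (43.0%), the other Meg3 window 0 (100%) and a further Mest window 7 (46.3%). The letters TGCCGC, which the imprint-protecting protein ZFP57 recognises when methylated, were searched on both strands and contain a CG pair themselves. They occurred 2 times in the Mest window, 1 time in the Meg3 window and 1 time in that of Plagl1, and in 8.68% of all windows. No match was found in the Grb10 or Dlk1 windows shown. Windows were matched for 8 of the 9 genes. These counts describe the reference sequence, and methylation was not measured in these samples.

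Signals are linear intensities, given as unstimulated and then TNF-treated for each genotype. A floor of 92.5, the 40th percentile of all pooled signals, was applied before ratios were taken, and a ratio with 1 side below it is written as at least N-fold. Values of a gene come from its brightest probe set by mean signal unless another is named. Of the 16 probe sets, 11 were above the floor on every array and 2 were below it on every array.

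The knockout culture carried much more Mest, Grb10, Cdkn1c and Peg3 transcript than the wild-type culture and much less Meg3, Dlk1 and Plagl1, without and with TNF. Igf2 and Igf2r differed by less than 2-fold. In unstimulated cells the knockout signal was higher by 2-fold or more for 4 of 9 members and lower for 3, against 4.55% and 4.70% of 6062 measured genes in the same directions (9.25% in either). Under TNF the same 4 were higher and the same 3 lower, against 5.62% and 5.01% of 5852 genes (10.6% in either). Cdkn1c was measured only through the knockout arrays, where it is high, so its place in these counts was fixed by the filter. The same held under TNF for Grb10, whose wild-type signal of 27.6 was below the floor. The members were chosen with earlier results of these data known. Setting these counts, or those of the fit below, beside all genes is therefore not an independent test. The median log2 ratio of the members was -0.36 without and -0.06 with TNF, beside -0.01 and 0.07 over all genes. The members lay at both ends of the distribution, which a median does not show.

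**Figure D1:**
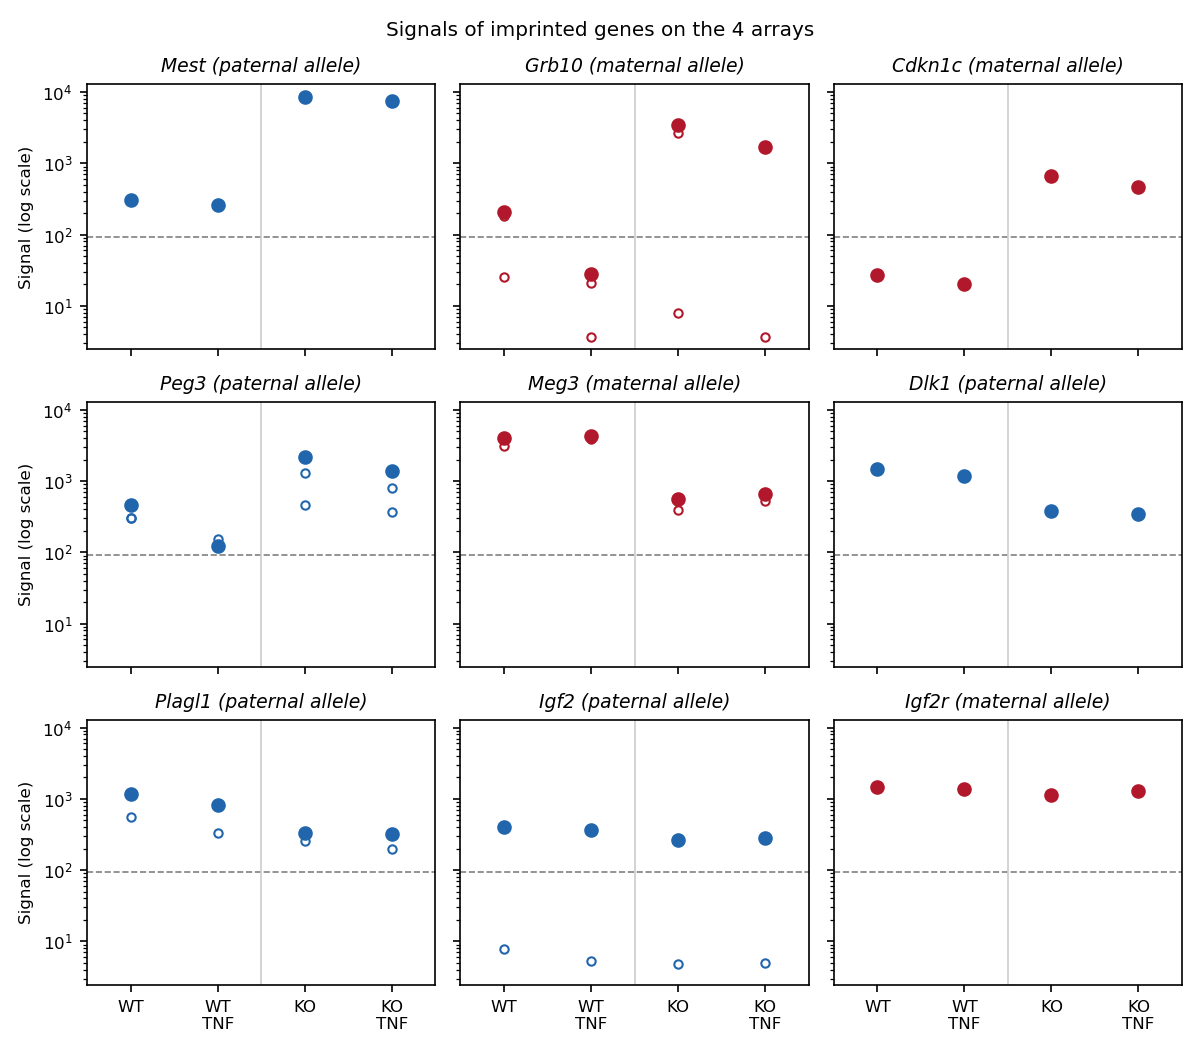
Signals of 9 imprinted genes (log axis) on the arrays of wild-type (WT) and knockout (KO) cells without and with TNF, with 1 array per position. Filled points are the probe set used for the gene, open points its other probe sets, red marks maternally and blue paternally expressed genes, and the dashed line is the floor at 92.5. Mest rises from 305 and 262 on the wild-type arrays to 8637 and 7443 on the knockout arrays, whereas Meg3 goes from 4047 and 4263 to 558 and 660.

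Mest, a paternally expressed gene for a hydrolase-like membrane protein of embryonic mesoderm, had signals of 305 (unstimulated) and 262 (TNF) in wild-type cells against 8637 and 7443 in knockout cells. Both knockout arrays were far above both wild-type arrays. The ratio was 28.4-fold without TNF and 28.4-fold with it. In a limma fit of genotype and TNF as additive terms over all 4 arrays, the log2 difference of knockout and wild-type for Mest was 4.83 (SE 0.11, Benjamini-Hochberg adjusted p = 2.40e-06). The error of that fit rests on 1 residual degree of freedom per gene, namely how far the TNF responses of the genotypes differ, and on no replicate culture.

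Peg3, a paternally expressed zinc finger gene linked to growth and maternal behaviour, had signals of 455 and 121 in wild-type cells and 2196 and 1396 in knockout cells. Both knockout arrays were above both wild-type arrays. The ratio was 4.82-fold without and 11.5-fold with TNF, and the limma difference was 2.90 (SE 0.29, adjusted p = 0.00125). Its second probe set gave 4.24-fold and 6.50-fold. The third, whose suffix marks probes shared with related sequences, gave 1.53-fold and 2.44-fold with signals of 299 and 152 against 456 and 370. All 3 probe sets of Peg3 were thus higher on the knockout array in each state, by amounts that varied between probe sets.

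Grb10 encodes an adaptor that binds the insulin and IGF1 receptors and dampens their signalling, and is expressed from the maternal allele in most tissues. Its signals were 204 and 27.6 in wild-type cells and 3391 and 1703 in knockout cells, with the TNF-treated wild-type array below the floor. The ratio was 16.6-fold without TNF and at least 18.4-fold with it. A second probe set had 181 and 20.9 against 2680 and 1704, a ratio of 14.8-fold and of at least 18.4-fold. The third probe set of Grb10 stayed at 25.1 or less on all arrays and gave no ratio. The limma difference was 4.13 (SE 0.16, adjusted p = 2.54e-05), with the dim array entered at the floor.

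Cdkn1c, which encodes the cyclin-dependent kinase inhibitor p57 and is read from the maternal allele, had signals of 26.9 and 20.5 in wild-type cells, both below the floor. The knockout arrays gave 654 and 468. Cdkn1c was therefore at least 7.07-fold higher without and at least 5.06-fold higher with TNF. The limma difference of 2.58 (SE 0.23, adjusted p = 0.000866) has both wild-type arrays entered at the floor, so its size and error depend on it. When the floor was set at the 60th percentile, its log2 ratio under TNF was 0.69, under 2-fold, because that floor raises the wild-type value.

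Igf2r, a maternally expressed receptor that removes IGF2 from the cell surface for degradation, had signals of 1449 and 1358 in wild-type cells and 1131 and 1300 in knockout cells. These values lay close together, with a log2 ratio of -0.36 without and -0.06 with TNF. The limma difference was -0.21 (SE 0.12, adjusted p = 0.289).

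Meg3 is a maternally expressed long non-coding RNA of the Dlk1 domain on chromosome 12. Its signals were 4047 and 4263 in wild-type cells and 558 and 660 in knockout cells, so both knockout arrays were below both wild-type arrays. The ratio corresponds to 7.25-fold lower without and 6.46-fold lower with TNF. The other probe set, with 3150 and 3938 against 387 and 520, gave 8.13-fold and 7.57-fold lower. The limma difference was -2.77 (SE 0.11, adjusted p = 2.54e-05).

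Dlk1, which encodes a transmembrane Delta-like protein that holds back adipocyte differentiation, is read from the paternal allele of that domain. It had signals of 1479 and 1174 in wild-type cells and 385 and 344 in knockout cells. The knockout arrays were 3.84-fold lower without and 3.41-fold lower with TNF, and the limma difference was -1.86 (SE 0.15, adjusted p = 0.000504). Dlk1 and Meg3, although assigned to opposite parental chromosomes, were thus lower in the same culture.

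Plagl1, the paternally expressed zinc finger transcription factor named above, had signals of 1177 and 819 in wild-type cells and 327 and 319 in knockout cells. It was 3.60-fold lower without and 2.56-fold lower with TNF, with a limma difference of -1.60 (SE 0.19, adjusted p = 0.00220). Its other probe set, with 554 and 332 against 257 and 200, gave 2.16-fold and 1.66-fold lower. Both probe sets of Plagl1 had the lower signal in the knockout, the second by under 2-fold in the TNF state.

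Igf2, the paternally expressed fetal growth factor, had signals of 407 and 367 in wild-type cells and 261 and 282 in knockout cells. The log2 ratio was -0.64 without and -0.38 with TNF, and the limma difference of -0.51 (SE 0.21) had an adjusted p of 0.140. Its other probe set, designed from the same accession, had signals of 7.80 or less on all arrays. The probe sets of Igf2 thus differ in whether they detect the gene at all, and the values given are those of the brighter one.

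By parental allele, 2 of 4 maternally expressed members had a knockout signal past 2-fold higher and 1 past 2-fold lower in each TNF state. Of the 5 paternally expressed members, 2 were higher and 2 lower in this way. The 2 higher maternally expressed members were Cdkn1c and Grb10, whose places the filter fixed, that of Grb10 only under TNF. Neither parental class moved one way. In the limma fit 7 of 9 members passed an adjusted p of 0.05 for genotype, 4 higher and 3 lower, against 21.9% of 6174 genes, 11.4% higher and 10.4% lower. Cdkn1c is among the 7 and entered this fit, too, only through the knockout arrays, so its call adds nothing to the count. The 7 members called by the fit are those past 2-fold in both states. Of the 16 probe sets, 10 were past 2-fold in both states. Several of these belong to the same gene. They include that of Cdkn1c and those of Grb10, fixed by the filter under TNF, so they are not separate support. The share among all probe sets was not counted. In these bulk samples, fewer cells of a type and less RNA per cell cannot be told apart.

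**Figure D2:**
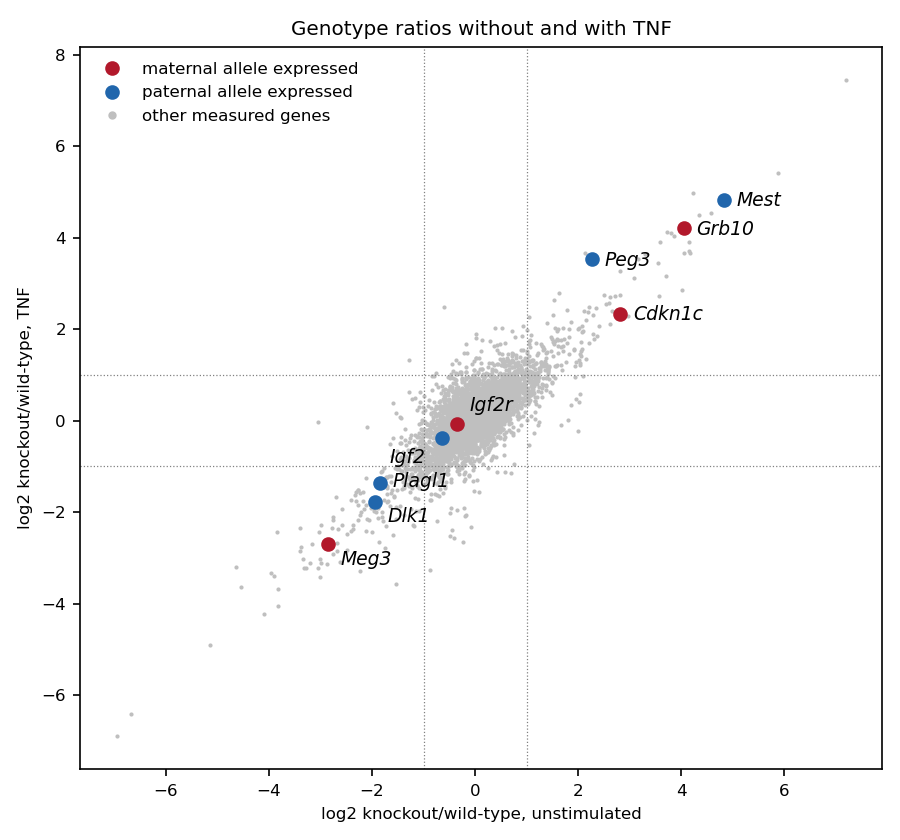
Log2 ratio of knockout to wild-type signal without TNF (horizontal) and with TNF (vertical) for every measured gene in grey and for the 9 imprinted genes in red (maternal allele expressed) and blue (paternal allele expressed). Dotted lines mark 2-fold; Mest at 4.83 and 4.83 and Grb10 at 4.05 and 4.20 lie at the upper right, Meg3 at -2.86 and -2.69 at the lower left.

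Fewer members were past 2-fold with TNF than between genotypes. In wild-type cells 2 of 8 measured members, Peg3 and Grb10, were at least 2-fold lower with TNF and none was higher, against 2.61% lower and 2.64% higher of 5911 genes (5.24% in either direction). Peg3 went from 455 to 121, 3.75-fold lower, and its other probe sets gave 2.51-fold and 1.97-fold lower. Grb10 was at least 2.21-fold lower, and its second probe set at least 1.96-fold. In this comparison Grb10 was measured only through the unstimulated array, where it is high, so it could only come out lower. Its place in the count was thus fixed by the filter. In knockout cells none of 9 members passed 2-fold, against 1.48% higher and 0.409% lower of 5868 genes (1.89% in either direction). Grb10 was 1.99-fold lower there and Peg3 1.57-fold lower. Scaling to equal medians in place of a common trimmed mean shifted the median of all genes in the wild-type TNF comparison from -0.10 to 0.17.

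In the limma fit the TNF term was called for 1 of 9 members, Grb10, with a log2 effect of -1.07 (SE 0.16, adjusted p = 0.0328) and was lower with TNF in both genotypes. Over all genes 1.44% were called, 1.28% higher and 0.162% lower. The call was lost with a floor at the 20th percentile (adjusted p = 0.121) or the 60th (0.407), with the mean of all probe sets (0.337) and with no intensity trend (0.123). Peg3 had a limma effect of -1.28 (SE 0.29, adjusted p = 0.111), and passed with quantile normalization (adjusted p = 0.0408) and with equal medians (2.83e-05), where limma estimated an infinite prior degree of freedom and so gave no weight to the gene's own spread. The other 7 members had log2 effects between -0.28 and 0.16 and adjusted p-values of 0.405 to 0.978 in the same limma fit.

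The TNF responses of the genotypes differed by more than 2-fold for 1 of 9 members, Peg3, against 3.66% of 6174 genes (2.53% higher and 1.13% lower in the knockout). The log2 change of Peg3 with TNF of -1.91 in wild-type cells against -0.65 in the knockout gave a difference of 1.25. A mean over its 3 probe sets gave 0.85, and a floor at the 60th percentile -0.0065. The signal of 121 on the TNF-treated wild-type array enters both this response and the 11.5-fold genotype ratio of Peg3 under TNF. No test of this difference was possible with 1 array per group. Mest, at the other extreme, had log2 changes of -0.22 and -0.21, although other scalings moved the wild-type value between -0.04 and 0.06.

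**Figure D3:**
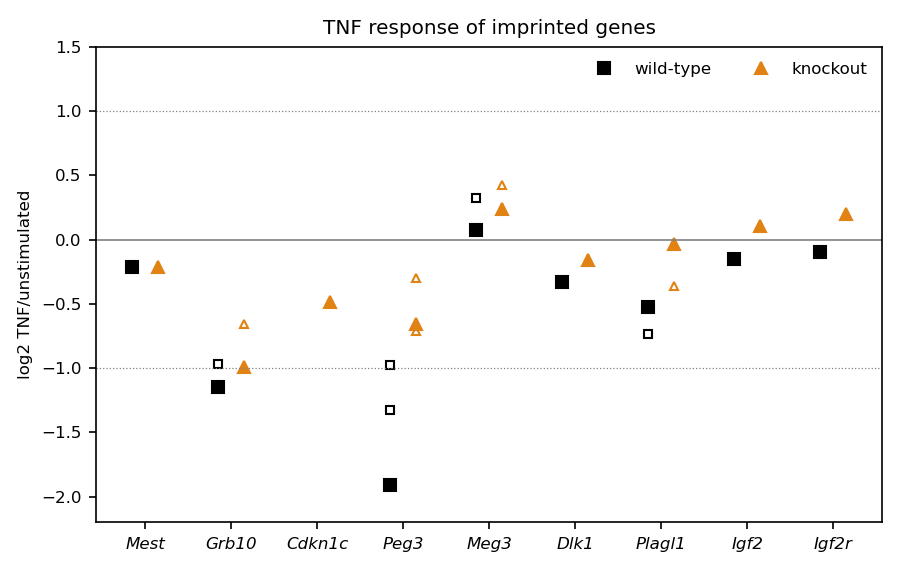
Log2 ratio of TNF-treated to unstimulated signal for the 9 imprinted genes in wild-type cells (black squares) and knockout cells (orange triangles), after the floor. Filled symbols are the probe set used and small open symbols other probe sets; dotted lines mark 2-fold. Peg3 at -1.91 and Grb10 at -1.14 in wild-type cells are past 2-fold, and Cdkn1c has no wild-type value because both arrays were below the floor.

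Most other imprinted genes on the array were within 2-fold between genotypes or below the floor. Of 10 further paternally expressed genes on the array 4 were measured. Ndn, a growth-suppressing gene of the Prader-Willi region, was 2.16-fold lower in unstimulated knockout cells (593 against 274) and had signals of 546 against 262 with TNF (2.08-fold lower, limma difference -1.09, adjusted p = 0.00971). Its other probe set gave 610 against 346 without TNF, 1.76-fold lower, and 369 against 286 with TNF, 1.29-fold lower. Sgce, a sarcoglycan gene, was higher in the limma fit by 0.74 (adjusted p = 0.00797), under 2-fold. Peg10, a retrotransposon-derived gene, was at least 3.16-fold higher under TNF because its wild-type signal fell below the floor (85.1 against 292), and did not pass the limma test (adjusted p = 0.0604). Slc38a4, an amino acid transporter gene, had signals of 986 to 1297 on all arrays. Of these 4 genes the fit thus called 1 higher and 1 lower, beside 11.4% and 10.4% of all genes.

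Of 8 further maternally expressed genes on the array 7 were measured, and none was past 2-fold without TNF, beside 9.25% of all measured genes. Ascl2, a placental transcription factor gene of the distal chromosome 7 cluster, and Tssc4, of the same cluster, were called higher in the limma fit by 0.83 (adjusted p = 0.0342) and 0.58 (adjusted p = 0.0323). Under TNF Ascl2 was at least 2.03-fold higher, with its wild-type signal of 29.1 below the floor. Of the 7 the fit called 2 higher and none lower, beside 11.4% and 10.4% of all genes. Phlda2, Slc22a18 and Kcnq1, which share the control region of Cdkn1c, had unstimulated log2 ratios of -0.07, -0.01 and 0.08 where Cdkn1c was at least 7.07-fold higher. The knockout signal of Phlda2 was below the floor in that ratio. Tssc4 and Ascl2 had unstimulated log2 ratios of 0.74 and 0.64. Of 11 measured genes that are imprinted in placenta or whose allele depends on the transcript, 1 was past 2-fold without TNF. This is near the 9.25% of all measured genes. This was Dcn, a proteoglycan gene, with signals of 15414 and 13693 in wild-type and 124 and 115 in knockout cells (124-fold lower without TNF, limma adjusted p = 7.34e-07). Gnas, which encodes a G protein subunit from several differently imprinted promoters, was called lower (limma difference -0.30, adjusted p = 0.0458) and Cd81 higher by 0.40 (adjusted p = 0.0307).

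**Figure D4:**
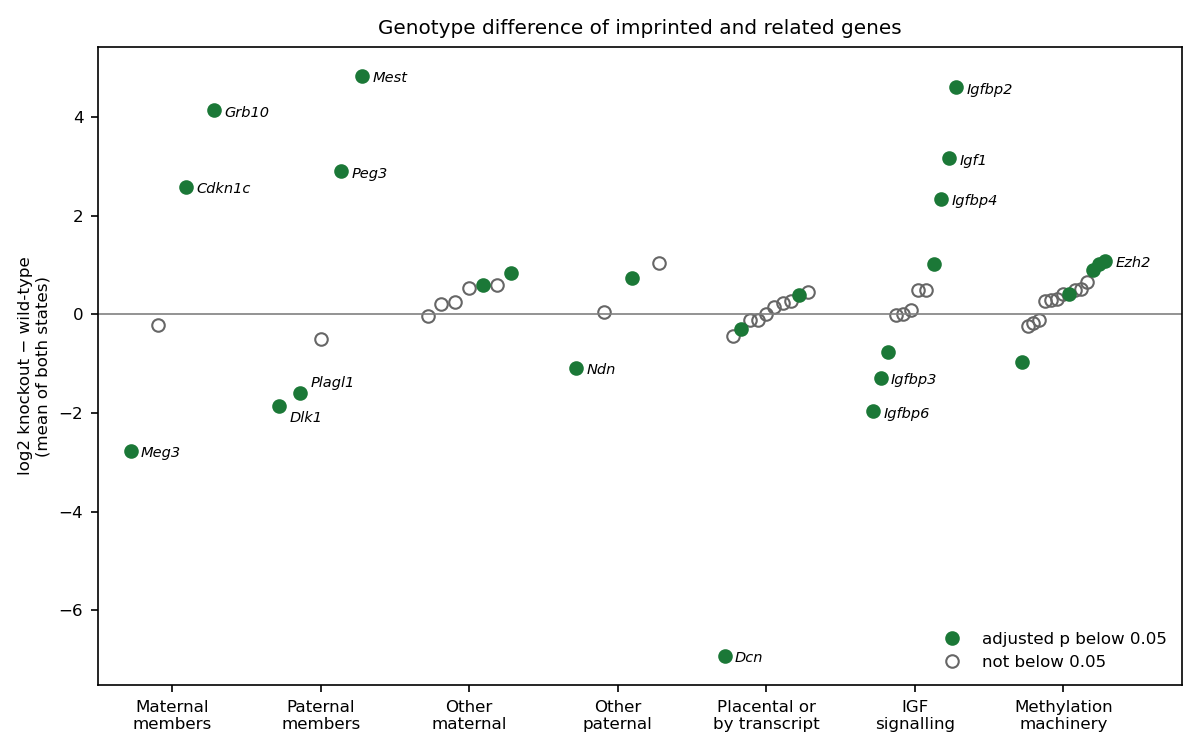
Genotype term of the additive limma fit, the mean log2 difference of knockout and wild-type over both TNF states, for measured genes of 7 lists, ordered by size within each list. Green points passed an adjusted p of 0.05 and open points did not. The members span -2.77 (Meg3) to 4.83 (Mest), and most other imprinted genes lie nearer to 0 apart from Dcn at -6.93.

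Igf2, Igf2r and Grb10 act within insulin-like growth factor signalling, and of 12 other measured genes of that pathway 4 were called higher and 3 lower in the knockout, beside 11.4% and 10.4% of all genes in the fit. Igf1, a growth factor gene of this pathway, had signals of 175 and 190 in wild-type and 2101 and 1267 in knockout cells, 12.0-fold higher without TNF. The other Igf1 probe set, from the same accession, gave 923 and 693 against 918 and 926, a log2 ratio of -0.0081 without TNF, so the probe sets of Igf1 disagree. The receptor gene Igf1r was 2.24-fold higher (482 against 1078) without TNF. The binding protein genes Igfbp2 and Igfbp4 were 18.7-fold and 4.61-fold higher, and Igfbp6 and Igfbp3 were 3.91-fold and 2.92-fold lower, in unstimulated knockout cells. The median log2 ratio of this list was 0.27 in unstimulated cells.

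Among 15 measured genes of DNA methylation and imprint maintenance, 4 were called higher and 1 lower in the knockout, beside the same 11.4% and 10.4% of all genes. Ezh2, a Polycomb histone methyltransferase gene, was 2.20-fold higher without TNF (233 against 512). The maintenance genes Uhrf1 and Hells were higher in the limma fit by 0.90 (adjusted p = 0.0262) and 1.02 (adjusted p = 0.0190), and Mbd1, a methyl-CG binding gene, had a difference of -0.97 (adjusted p = 0.0328). Dnmt1, the maintenance methyltransferase gene, had signals of 990 and 962 in wild-type and 1153 and 1283 in knockout cells (limma adjusted p = 0.120). Uhrf1 and Hells are also transcribed with DNA replication. In the same fit 13 of 17 measured cell cycle genes were called higher in the knockout and none lower, beside 11.4% and 10.4% of all genes. A link between these cell cycle genes and the methylation genes was not tested.

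The nearest measured genes on each side of a member, 2 per side, gave 32 distinct genes that are not members. Tssc4, Kcnq1, Slc22a18, Phlda2, Ascl2, Th and Slc22a2 are among them and belong to the imprinted lists above, so the neighbours are not all unimprinted. Without TNF 26 of the 32 genes were within 2-fold between genotypes, 5 were past it with the higher signal in the knockout and 1 with the lower. Of all measured genes 4.55% were higher and 4.70% lower in this way. Mest stood 28.4-fold higher beside Ube2h and Zc3hc1 at log2 ratios of 0.02 and 0.04 on one side and Chchd3 at 0.45 and Exoc4 at 1.55 on the other. The neighbours of Grb10, namely Ikzf1, Fignl1, Egfr and Ppp3r1, had log2 ratios of -0.43 to 0.17. Around Dlk1 and Meg3, Wars had a log2 ratio of -0.66 and Slc25a47 of -0.42 on one side, and Ppp2r5c of 0.0010 and Dync1h1 of -0.99 on the other. Around Plagl1, at -1.85, Utrn and Sf3b5 had log2 ratios of 1.10 and 0.24 on one side, and Ltv1 and Hivep2 of 1.22 and -0.53 on the other. Lsp1 and Mrpl23, which lie beyond H19 from Igf2 in the RefSeq order, had log2 ratios of 2.62 and 1.29 where Igf2 had -0.64. These differences between a gene and its neighbours were not tested.

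**Figure D5:**
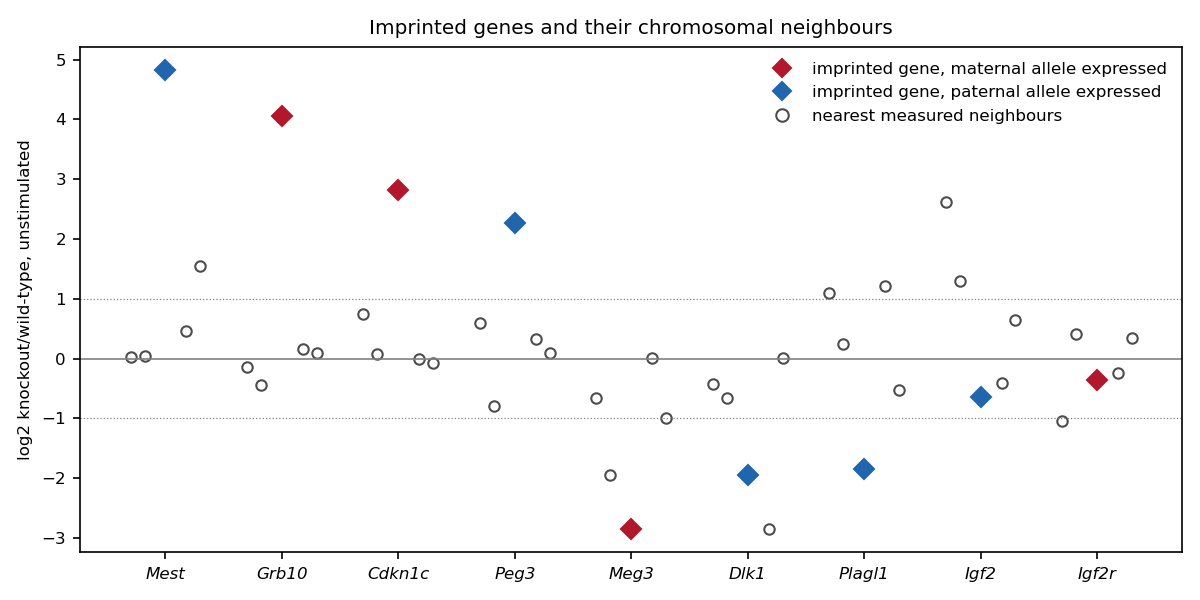
Log2 ratio of knockout to wild-type signal in unstimulated cells for each imprinted gene (diamonds, red for maternal and blue for paternal expression) and for the nearest 2 measured genes on each side in chromosomal order (open circles). Dotted lines mark 2-fold. Dlk1 and Meg3 are each other's neighbour and appear as circles at -1.94 and -2.86, while most other circles lie between the dotted lines.

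Genes with the most similar course over the 4 arrays were found by Euclidean distance between log2 signals centred on each gene's mean, among 5837 other genes. Nearest to Mest were Clec11a, Igfbp2 and Capn6 (distances 0.27, 0.50 and 0.53), and nearest to Grb10 were Shox2, Capn6 and Dkk3 (0.42, 0.60 and 0.63). For Cdkn1c they were Irx3, Evi2a and Fmod, and for Peg3 they were Cd24a, Bnip3 and Ccn5 at 0.97 to 1.10. Nearest to Meg3 were Gstm2, Renbp and Rbpms, nearest to Dlk1 were Epb41l4a, Zfp982 and Hoxb7, and nearest to Plagl1 were Sim2, Ephx2 and Adh1. Sim2, Ephx2 and Adh1 were below the floor on both knockout arrays, so the floor set part of their course. The same holds in wild-type cells for Cdkn1c and Evi2a, which were below it on both arrays, and for Irx3 with signals of 94.8 and 67.4.

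Several features of the cultures moved with genotype beside these results. Signals summed over 18 cell cycle genes were 11582 and 11388 in wild-type and 18948 and 19324 in knockout cells. Xist, the RNA of the inactive X chromosome, had signals of 34.3 and 5.40 in wild-type and 1232 and 1601 in knockout cells. The Y-linked Eif2s3y had 489 and 308 against 2.80 and 9.10. The dimmer Y-linked Uty and Kdm5d were above the floor only on the unstimulated wild-type array. By these transcripts the wild-type culture was male and the knockout culture female, so sex and genotype cannot be told apart. The collagen genes Col1a1, Col1a2 and Col3a1, which mark fibroblasts, had signals of at least 9305 on every array, and the Vim probe set reached only 94.5. Of 11 fibroblast markers the limma fit called 1 higher in the knockout and 4 lower, beside 11.4% and 10.4% of all genes. The higher one was S100a4 (1351 against 4106 without TNF, 3.04-fold, limma adjusted p = 0.000121). The lower ones were Thy1 (1120 against 308 without TNF, 3.63-fold lower, adjusted p = 0.00125), Pdgfrb (925 against 569, adjusted p = 0.0138), Fap and Lum. Fap and Lum were below the floor in knockout cells. They entered the fit only through the wild-type arrays, where they are high, so their calls add nothing to the count. Signals summed over the 11 markers were 64591 and 61571 in wild-type and 62954 and 60218 in knockout cells. Most of each sum came from Col1a1, Col1a2 and Col3a1, at 25902, 20440 and 10445 on the unstimulated wild-type array. The sums therefore hardly reflect the dimmer markers that were lower. Of the trophoblast markers on the array, Cdx2, Tpbpa and Eomes were below the floor on every array, and Hand1 had signals of 166 to 291. Xiap itself was dim, with a brightest probe set at 239 and 126 in wild-type and 180 and 120 in knockout cells. The sources used here do not say whether its probes lie in the deleted part, so it does not check the labels. The part of these features in the differences of imprinted genes was not tested.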

How the data were processed

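Total RNA from 4 cultures was profiled on 1 Affymetrix U74Av2 array each, grouped by sample title. The authors deposited linear probe set intensities, for which the submitters' processing notes name MAS5; its version, settings and calls were not given in the sources used here. All 12488 probe sets per array had a trimmed mean of 500.3 with 2% left out at each end, so arrays had been scaled before deposit. Symbols came from the platform annotation: 10833 probe sets had 1 symbol, 396 had several and 1193 non-control probe sets had none; 10817 were matched by Entrez identifier to RefSeq (GRCm38.p6). The 66 control probe sets were left out. Intensities were rescaled to the common trimmed mean, raised to a floor of 92.5 and converted to log2. A floor understates changes of dim genes. A gene was measured in a comparison when at least 1 array compared was above the floor (6174 genes over all arrays).

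The ratios have no test. The additive fit used limma 3.58.1 in R 4.3.3 (lmFit, then eBayes with trend; 2-sided p-values adjusted by Benjamini-Hochberg over all 6174 genes and called below 0.05; 5.62 prior degrees of freedom) and was tested on simulated data. It treats a difference of response as error. Named were all members, up to 4 genes of each other list, and the 3 genes nearest in course to each member past 2-fold in both states. The neighbour rule and some further named genes were chosen after values were seen. The members and lists were chosen with earlier results of these data known. The alternatives were other scalings (quantile normalization, equal medians), other floors (20th and 60th percentile), the mean of all probe sets and no intensity trend. Promoter sequences are RefSeq's.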

Additional observations from a re-analysis of the deposited data

Results flagged for a closer look

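A probe set outside the comparisons, because its annotation lists Mir675 together with H19, reached 1868 without and 1428 with TNF on the knockout arrays, above the signals of 96.2 and 83.7 on the wild-type arrays. The ratio was 19.4-fold without TNF and at least 15.4-fold with it. The microRNA is processed from the H19 transcript, and which of the annotated transcripts the probes detect was not tested.

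Igf2 and Igf2r had TNF responses of opposite sign in the genotypes. In wild-type cells the log2 changes were -0.15 for Igf2 and -0.093 for Igf2r. In the knockout they were 0.11 for Igf2 and 0.20 for Igf2r. Both wild-type values turned positive with equal medians, at 0.13 and 0.19, and the difference between genotypes was not tested.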

How the results depend on the processing

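The count of 7 members past 2-fold between unstimulated genotypes, 4 higher and 3 lower, was 7 under each alternative. Under TNF it was 7, and 6 when the floor was the 60th percentile. The genotype term of the limma fit called 7 members under each alternative except the floor at the 60th percentile, which called 8 with Igf2 added (adjusted p = 0.0497, against 0.0622 to 0.316 under its other alternatives). Over all genes that term called 1351 genes, 893 with the mean of all probe sets and 887 with no intensity trend. The TNF results depended more on the processing. Members past 2-fold with TNF in wild-type cells numbered 2, against 0 with a floor at the 60th percentile and 1 with the mean of all probe sets. Members whose responses differed past 2-fold numbered 1, against 2 with a floor at the 20th percentile, where Grb10 was added at 1.89, and 0 with a floor at the 60th percentile or the mean of all probe sets. For Peg3 that difference of 1.25 reversed to -0.0065 at the 60th percentile, where the floor raises the TNF-treated wild-type value. The TNF term called 1 member, against 2 with quantile normalization and with equal medians, and 0 with either other floor, the mean of all probe sets or no intensity trend. Over all genes it called 89 genes, and 6 with the mean of all probe sets, 18 with no intensity trend, 168 with quantile normalization and 366 with equal medians.

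Scaling also moved the split of all genes past 2-fold. With TNF in wild-type cells it was 156 higher and 154 lower, against 192 and 82 with quantile normalization and 283 and 68 with equal medians. Between genotypes under TNF it was 329 and 293, against 240 and 445 with equal medians, and for the difference of response 156 and 70, against 102 and 102 with quantile normalization and 88 and 148 with equal medians. Equal medians also moved the median of all genes between genotypes under TNF from 0.07 to -0.12. Small TNF changes of Mest, Meg3, Igf2 and Igf2r in wild-type cells and of Plagl1 in knockout cells changed sign with the scaling. No paired analysis was possible because each group has 1 array. Signals near the floor limit Grb10, Cdkn1c and Peg3 in wild-type cells.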
